A study of Mus musculus with 16 samples.

Results

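Bone marrow-derived macrophages (BMDMs) grown in tumor medium with both inhibitors were compared with BMDMs in tumor medium alone across all genes. The comparison took 6 of the 16 samples of the study: 3 samples labelled CM and 3 labelled CM + Rux + IKK-16. All BMDMs came from the bone marrow of WT Balb/c mice aged 8 weeks. CM is medium conditioned by 4T1 cells, a mouse mammary tumor cell line, so it holds the soluble factors that these cells release. CM + Rux + IKK-16 is the same medium with 0.5 μM ruxolitinib (Rux) and 0.8 μM IKK-16. Both groups therefore had tumor medium, and by their labels they differed in the 2 inhibitors together. A further 3 groups are used for reference: DMEM without tumor medium (2 samples), CM + Rux with 0.5 μM ruxolitinib (3 samples, labelled 4h) and DMEM + Rux (3 samples). IKK-16 without ruxolitinib was not analysed here. As models, these are cultured macrophages that met tumor factors but no tumor cells.

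Ruxolitinib blocks the kinases JAK1 and JAK2, which sit on the cytoplasmic tails of cytokine and interferon receptors and phosphorylate STAT transcription factors. IKK-16 blocks the IKK kinases, which mark the IκB inhibitors for degradation and so let NF-κB dimers enter the nucleus. In macrophages the interferon receptors act through STAT proteins and IRF9, the IL-6 family mainly through STAT3, and GM-CSF through STAT5, while NF-κB drives many cytokines, chemokines and its own inhibitors.

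The 6 samples held between 18892363 and 38502700 counts. Levels are given as CPM, the counts of a gene relative to all counts of its sample, scaled by relative log expression (RLE), for replicate 1, 2 and 3 in that order. In a principal component analysis of the 6 samples, the first component held 60.6% of the variance and separated the groups, and the second held 17.2% and set replicate 2 of each group apart from the others. The 10 macrophage markers were all tested, and their summed level was 47500 to 56500 CPM in CM and 46400 to 52700 CPM with both inhibitors. Of these markers, Itgam (-0.65 on the log2 scale) and Mertk (-0.95) were called lower. The summed markers of epithelial and tumor cells stayed at or below 1.5 CPM, those of T and NK cells at or below 3.74 CPM, neutrophils at or below 1.57 CPM, B cells at or below 0.824 CPM, dendritic cells at or below 2.48 CPM and fibroblasts between 16.1 and 30.5 CPM. Of the defining markers, Krt14, Krt5 and Cldn3 (epithelium), Ly6g (neutrophils), Cd3e, Cd3d, Cd8a and Ncr1 (T and NK cells) and Pax5 (B cells) were at 0 in all 6 samples, and the B cell marker Cd79b, at under 1 CPM, was called higher (1.55). As these are bulk samples, a lower level could mean fewer cells that use a gene or less RNA per cell, and the 2 cannot be told apart.

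With both inhibitors, 817 genes were higher than in CM alone (6.6% of the 12372 tested) and 758 were lower (6.13%). A gene was called at an adjusted p under 0.05 and a log2 fold change beyond 0.5, and all adjusted p-values are from edgeR's quasi-likelihood test with Benjamini-Hochberg adjustment over all genes. Unless stated, they are from fits without a replicate block, also where a sample was left out. With the replicate number as a block over all samples, every call among the 203 genes named by a set rule (given below) was kept. That holds also for those that lost a call when 1 sample was left out. The falls were the larger changes: the median log2 fold change was -0.94 among the genes called lower and 0.80 among those called higher. Beyond a log2 fold change of 1 there were 344 lower (2.78%) and 258 higher (2.09%) genes, and beyond 2 there were 118 lower (0.954%) and 19 higher (0.154%). In 748 of the 758 lower genes and 792 of the 817 higher genes the samples of the groups did not overlap, against 2441 (19.7%) and 2250 (18.2%) of all genes tested. With scaling by total counts alone the calls were 1255 higher and 587 lower, 68.1% against 31.9% of calls in place of 51.9% against 48.1%. RLE places the median of all genes 0.11 below that scaling, and changes are given relative to the RLE median, 0.00027.

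**Figure D1:**
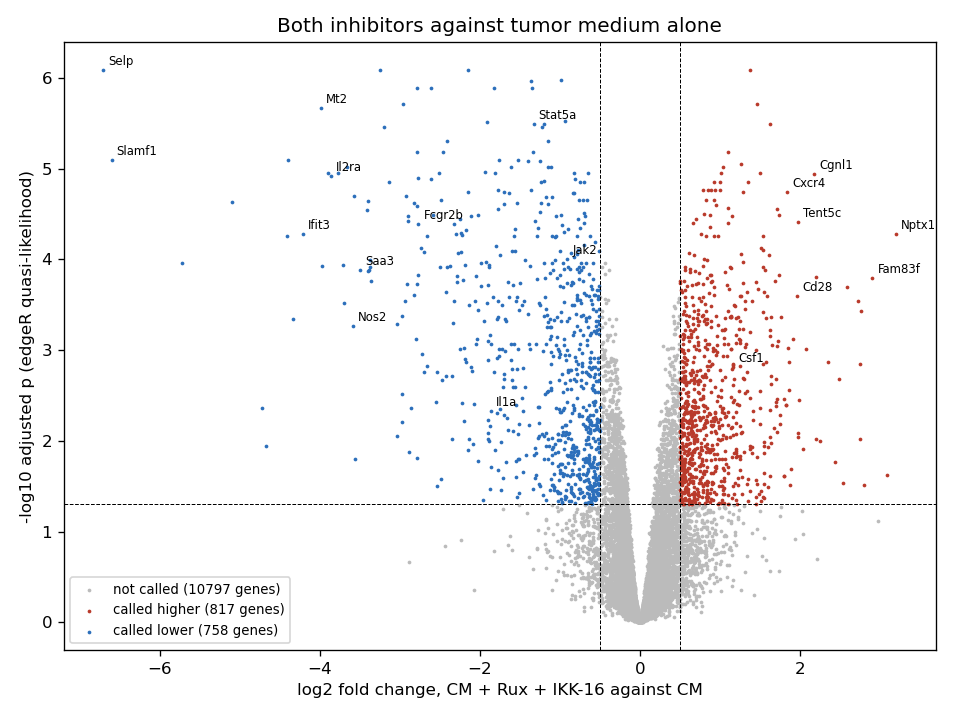
Each point is 1 of the 12372 genes tested. The horizontal axis gives the log2 fold change of CM + Rux + IKK-16 against CM and the vertical axis -log10 of the adjusted p, dashed lines mark the thresholds, and the lower genes (758, blue) extend to -6.70 while the higher genes (817, red) reach 3.20 among those named.

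To describe how the combined change relates to the response to tumor medium, genes were sorted by CM + Rux against DMEM + Rux, a comparison that shares no sample with the main one. Tumor medium raised 2761 genes (22.3% of those tested) and lowered 3096 (25%) in the presence of ruxolitinib. Of the 2761 raised genes, both inhibitors lowered 520 (18.8%) and raised 77 (2.79%), with a median log2 fold change of -0.22. The 3096 lowered genes moved the other way: 562 (18.2%) were higher with both inhibitors and 71 (2.29%) were lower, with a median of 0.29. Among the 6515 other genes, 178 (2.73%) were higher and 167 (2.56%) lower, with a median of -0.01. In the first 2 classes most calls were thus opposite in sign to the change with tumor medium, and the median stayed well under 1 in each class. With scaling by total counts the medians were -0.11, 0.40 and 0.09, so the last one changed sign and the first 2 did not.

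**Figure D2:**
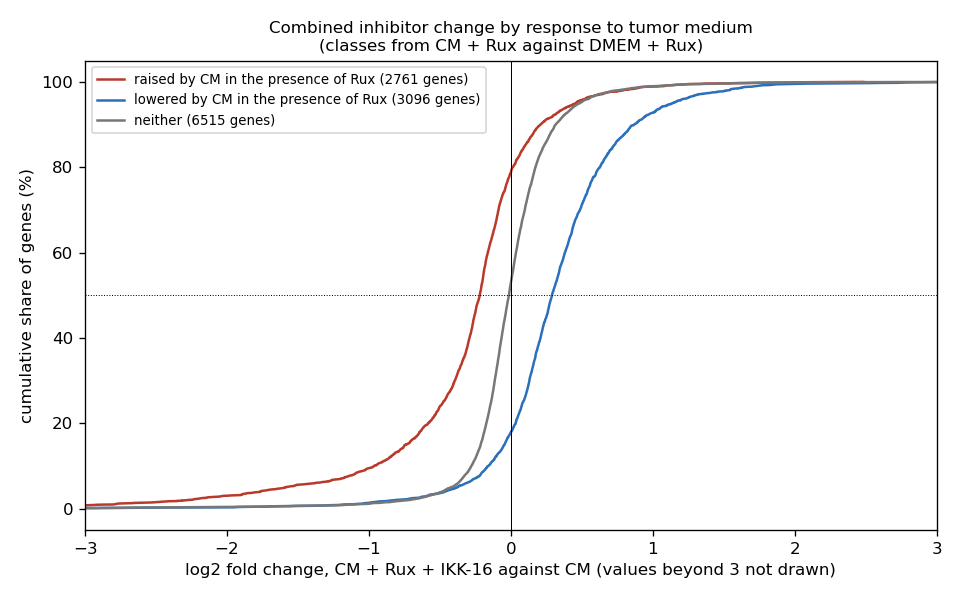
Cumulative share of genes (vertical axis, %) by log2 fold change of CM + Rux + IKK-16 against CM (horizontal axis), for genes raised (2761), lowered (3096) or neither (6515) by tumor medium in the presence of ruxolitinib. The curve of raised genes lies to the left (median -0.22) and that of lowered genes to the right (median 0.29) of the rest (-0.01).

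For reference, the combined change can be split into CM + Rux against CM, which called 149 genes higher (1.2%) and 263 lower (2.13%), or 305 (2.47%) and 440 (3.56%) with the replicate number as a block, and CM + Rux + IKK-16 against CM + Rux, which called 504 higher (4.07%) and 453 lower (3.66%). These are named the ruxolitinib step and the IKK-16 step below. The steps share the CM + Rux samples and each shares a group with the main comparison, so their values are given side by side only.

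The counts of each gene list below stand beside 6.6% of all genes called higher and 6.13% called lower. A share near these does not set a list apart. Genes induced by type I interferon had the lowest median of the 38 gene lists. Of 59 tested genes of this list, 55 fell, none rose and the median log2 fold change was -1.88. With the replicate number as a block, which called 1021 of all genes higher (8.25%) and 904 lower (7.31%), 56 fell and 1 rose. The rise was of Tor3a (log2 fold change 0.57, adjusted p = 0.00705), one of several genes named only for a call that the block added and so chosen after their values were seen. Ifit3, which encodes an antiviral protein that binds other IFIT proteins, was at 3.5, 8.7 and 4.39 CPM in CM and at 0.18, 0.458 and 0.291 CPM with both inhibitors (log2 fold change -4.20 ± 0.48 SE, adjusted p = 5.24e-05). Every sample with inhibitors was below the lowest CM sample, and the level in DMEM was higher still, at 33.8 and 74.3 CPM. Mx2, of the dynamin-like GTPase family but annotated as a polymorphic pseudogene, fell from 4, 14.9 and 7.41 CPM to 0.36, 0.397 and 0.495 CPM (log2 fold change -4.41 ± 0.51 SE, adjusted p = 5.55e-05), and CM replicate 2 was the highest of its group. Rtp4, a chaperone-like interferon target, fell from 48.3, 87.3 and 60 to 2.86, 6.72 and 3 CPM (log2 fold change -3.97 ± 0.51 SE, adjusted p = 0.00012). Cmpk2, a mitochondrial nucleotide kinase, fell from 10.9, 30.5 and 14.3 to 1.06, 2.14 and 1.19 CPM (log2 fold change -3.69 ± 0.54 SE, adjusted p = 0.0003). The levels of both genes in DMEM averaged 87.6 and 64.7 CPM, above those with both inhibitors (-4.39 and -5.48 on the log2 scale against DMEM, both called, in a comparison that called 2126 genes lower, 17.2%). Slfn1, a Schlafen family gene, fell by 4.34 and Trim30d by 3.71 on the log2 scale. In CM against DMEM, which shares the CM samples, the median log2 fold change of this list was -0.53, beside -0.005 over all genes tested. The list as a whole was therefore not raised by tumor medium. The ruxolitinib step called 44 members lower and the IKK-16 step 6 lower and 1 higher. For Ifit3 the steps were -4.05 and -0.15, the second not called. Members of the Ifit, Oas, Mx, Slfn, Trim30 and Ifi200 families resemble each other in sequence, and fragments that map to several of them were not counted by the authors, so their separate levels are uncertain.

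A promoter stretch is shown for the 3 members of this list with the largest falls that hold the core of the interferon-stimulated response element, GAAA repeated after any 2 bases (either strand), near the RefSeq start site; the genes of all 3 promoter sets were chosen after their values were seen. The motif is in capitals, sequences run 5′ to 3′ on the strand of the gene, and the build is GRCm38.p6: chr19:34583343-34583446 (plus strand) for Ifit3, chr7:104507851-104507920 (minus) for Trim30d and chr1:174031850-174031919 (minus) for Ifi205.
Ifit3: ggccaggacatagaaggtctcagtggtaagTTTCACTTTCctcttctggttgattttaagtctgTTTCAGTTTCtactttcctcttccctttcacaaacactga
Trim30d: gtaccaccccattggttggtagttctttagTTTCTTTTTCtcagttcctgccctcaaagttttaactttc
Ifi205: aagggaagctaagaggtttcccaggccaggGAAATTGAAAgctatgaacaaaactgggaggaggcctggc
Of the 47 list members with a RefSeq promoter window (250 bases before to 50 bases after the start), 25 held this motif (53.2%), against 12.8% of the windows of genes called lower, 2.8% of those called higher and 3.91% of all 9210 windows. A match describes the letters of the window and no binding was measured.

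The interferon-inducible GTPases of the GBP and IRG families, which attack the vacuoles of intracellular pathogens, also fell. All 14 tested members were lower, with a median of -1.59. Gbp4 fell from 1.72, 2.79 and 1.47 to 0.18, 0.244 and 0.378 CPM (log2 fold change -2.91 ± 0.40 SE, adjusted p = 0.000185), and Ifi47 from 14.5, 21 and 18 to 4.87, 4.16 and 4.98 CPM (log2 fold change -1.94 ± 0.18 SE, adjusted p = 1.08e-05). Gbp5 was 153, 136 and 144 CPM in CM and 29.7, 40.8 and 57.5 CPM with both inhibitors (log2 fold change -1.76 ± 0.31 SE, adjusted p = 0.00116), with 0.42 in the ruxolitinib step (not called) and -2.18 in the IKK-16 step. GBP genes lie in clusters of similar copies, and the same limit on their separate levels holds.

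Of 15 STAT and IRF transcription factors, 7 fell and none rose (median -0.48). Irf9, the DNA-binding part of the complex that type I interferon activates, fell from 59.8, 75.2 and 68.1 to 20.3, 27.4 and 23 CPM (log2 fold change -1.52 ± 0.13 SE, adjusted p = 8.03e-06). Stat3, the main IL-6 family factor, fell from 696, 776 and 529 to 336, 389 and 266 CPM (log2 fold change -1.01 ± 0.17 SE, adjusted p = 0.00103). Stat5a, which GM-CSF activates, fell from 131, 111 and 118 to 45.9, 45.8 and 51.6 CPM (log2 fold change -1.33 ± 0.10 SE, adjusted p = 3.22e-06). Groups did not overlap for any of the 3. By step, Irf9 changed by -1.46 in the ruxolitinib step and -0.07 in the IKK-16 step, and Stat5a by -0.01 and -1.31. Irf8, a macrophage lineage factor, fell from 266, 297 and 282 to 111, 117 and 135 CPM (log2 fold change -1.22 ± 0.10 SE, adjusted p = 3.48e-06).

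**Figure D3:**
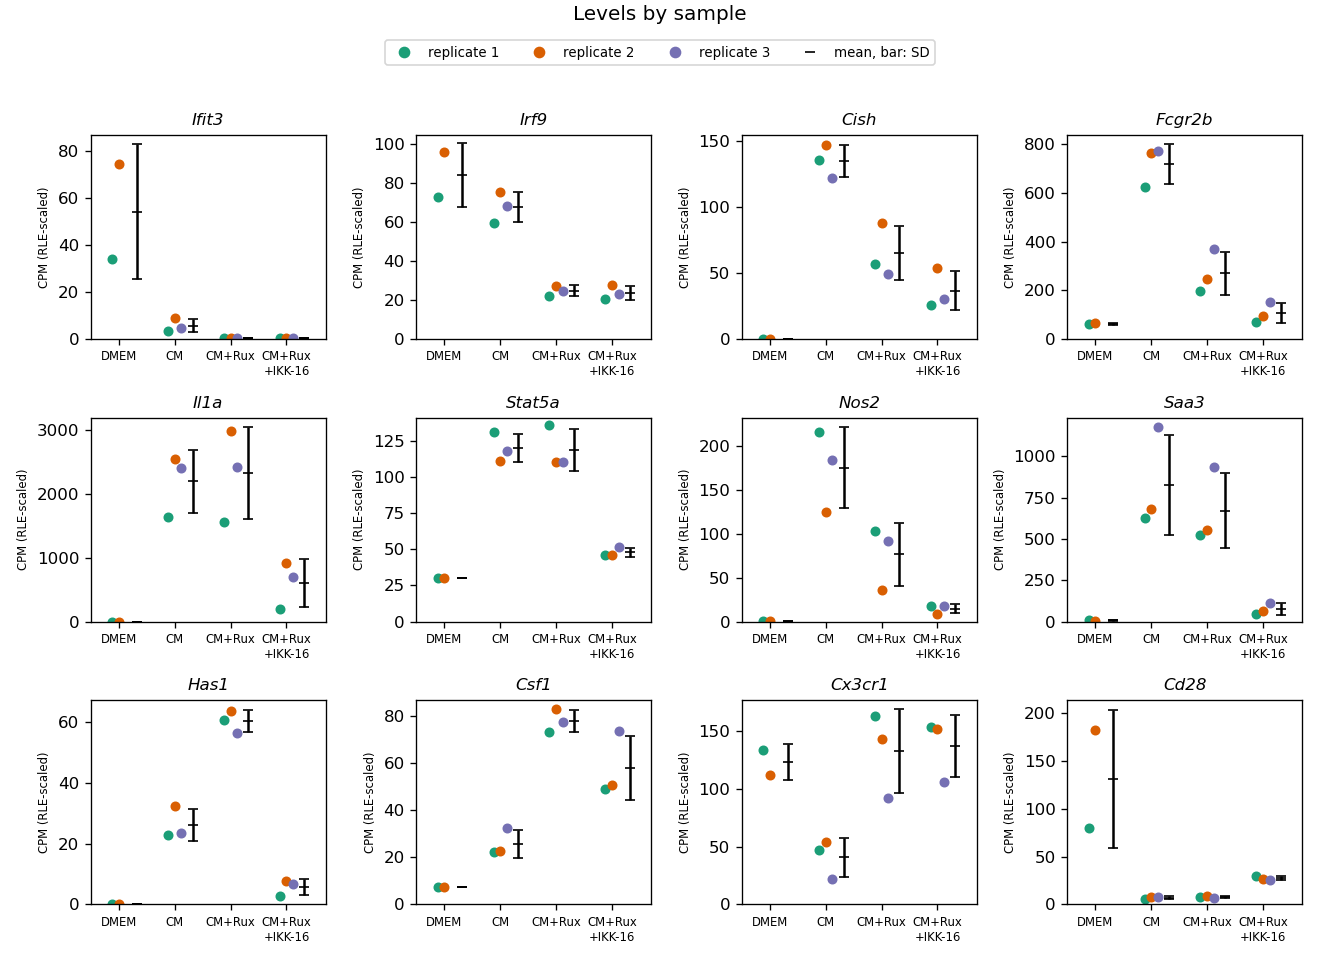
Level of 12 genes by sample in RLE-scaled CPM (vertical axis, from 0), with points colored by replicate number and a bar for the mean ± SD of each group (DMEM 2 samples, the others 3). Cish, Fcgr2b, Nos2 and Irf9 were lower with both inhibitors than in CM, Has1 was higher in CM + Rux and lowest of the tumor medium groups with both inhibitors, and Csf1, Cx3cr1 and Cd28 were higher with both inhibitors.

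Target genes of STAT3 and STAT5 were mostly lower: 16 of 29 tested fell (55.2%, beside 6.13% of all genes) and 2 rose (6.9%, beside 6.6%), with a median of -0.79. Leaving out CM replicate 2, or replicate 1 or 3 of CM + Rux + IKK-16, left 10 falls. Steap4, a metalloreductase induced by IL-6 and IL-1, had the largest fall. It was at 1.39, 4.07 and 2.52 CPM in CM and 0, 0.153 and 0 CPM with both inhibitors (log2 fold change -5.72 ± 0.72 SE, adjusted p = 0.000109), and 2 of the 3 libraries with inhibitors held no count. Il2ra, the alpha chain of the IL-2 receptor, fell from 10.1, 9.14 and 12.3 to 0.567, 0.794 and 0.815 CPM (log2 fold change -3.86 ± 0.36 SE, adjusted p = 1.2e-05). Cish, a STAT5-induced inhibitor of cytokine receptors, fell from 136, 147 and 122 to 25.4, 53.5 and 30.5 CPM (log2 fold change -1.89 ± 0.24 SE, adjusted p = 0.000117), and stayed far above its DMEM level of 0.135 CPM. Socs3, the feedback inhibitor of IL-6 signaling, fell from 1912, 2596 and 1835 to 502, 1212 and 658 CPM (log2 fold change -1.42 ± 0.37 SE, adjusted p = 0.0144). Arg1, arginase 1, fell from 17.1, 54 and 22.2 to 1.44, 12.7 and 2.88 CPM (log2 fold change -2.48 ± 0.73 SE, adjusted p = 0.026). Without CM replicate 2, or without replicate 1 or 3 of CM + Rux + IKK-16, neither of these last 2 calls was kept (adjusted p 0.0542 to 0.0689 for Socs3 and 0.0905 to 0.126 for Arg1). The 2 members called higher were Ccnd1, cyclin D1 (1.45), and Pim2, a survival kinase (0.53). Neither call held in every fit that left out 1 sample: Ccnd1 had an adjusted p of 0.0526 to 0.131 without CM replicate 1 or 3 or without replicate 2 or 3 of CM + Rux + IKK-16, and Pim2 a log2 fold change of 0.47 to 0.49 without replicate 3 of either group. With the replicate block over all samples both were called (adjusted p = 0.00358 and 0.00282).

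Promoter stretches of the 3 members of this list with the largest falls that hold a STAT site (TTCNNNGAA, which reads the same on both strands) follow, with the site in capitals and the gene's strand as above: chr5:7960326-7960394 (plus) for Steap4, chr11:117969482-117969550 (minus) for Socs3 and chr16:23988932-23989000 (minus) for Bcl6 (log2 fold change -1.28), GRCm38.p6.
Steap4: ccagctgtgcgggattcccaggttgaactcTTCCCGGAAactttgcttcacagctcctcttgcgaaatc
Socs3: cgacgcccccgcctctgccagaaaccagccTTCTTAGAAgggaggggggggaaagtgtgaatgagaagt
Bcl6: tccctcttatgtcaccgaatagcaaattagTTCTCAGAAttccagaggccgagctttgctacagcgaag
The site was present in 6 of the 21 list members with a window (28.6%), in 12.7% of the windows of genes called lower, in 8.39% of those called higher and in 8.19% of all windows. It was not particular to this list: 4 of 14 windows of NF-κB subunits and inhibitors held it (28.6%). The share was 14.9% for interferon-stimulated genes, 5.56% for inflammatory cytokines and 6.56% for oxidative phosphorylation subunits.

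Parts of the JAK pathway itself changed with both inhibitors. Of 33 kinases, receptors and regulators, 9 fell (27.3%, beside 6.13% of all genes) and 2 rose (6.06%, beside 6.6%), with a median of -0.29. Jak2 fell from 734, 759.9 and 699 to 362, 413 and 395 CPM (log2 fold change -0.91 ± 0.11 SE, adjusted p = 9.87e-05), and Jak3 from 62.2, 59 and 68 to 28.1, 31.7 and 31.9 CPM (log2 fold change -1.05 ± 0.11 SE, adjusted p = 3.37e-05). Jak1 was 482, 420 and 430.4 CPM in CM and 339, 293 and 333 CPM with both inhibitors, a log2 fold change of -0.47 that passed the p threshold (0.000971) but not the fold threshold. The receptor chains Il4ra, shared by IL-4 and IL-13, and Il6ra fell: Il4ra from 870.4, 1219 and 799 to 226, 374 and 249 CPM (log2 fold change -1.77 ± 0.26 SE, adjusted p = 0.00029) and Il6ra from 112, 109 and 80.2 to 45, 44.1 and 42.5 CPM (log2 fold change -1.19 ± 0.15 SE, adjusted p = 0.000109). Ptpn1, a phosphatase that acts on JAKs, fell by 1.20 on the log2 scale. The 2 receptors called higher were Il7r (0.70) and Il11ra1 (0.70). Both were called with the replicate block as well (adjusted p = 0.0014 and 0.00066), but not in every fit that left out 1 sample. Il7r lost its call without CM replicate 1 or 3 or replicate 1 or 2 of CM + Rux + IKK-16 (adjusted p 0.0513 to 0.0712), and Il11ra1 without CM replicate 1 or 2 or replicate 1 or 3 of CM + Rux + IKK-16 (0.0559 to 0.0938).

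Among NF-κB subunits and their inhibitors, 7 of 17 fell and none rose (median -0.47). The ruxolitinib step called none of the 17 in either direction, and the IKK-16 step called 8 lower. The fall was clearest in inhibitors, which NF-κB itself induces. Nfkbia, which encodes IκBα, fell from 819, 1049 and 829 to 424, 628 and 546 CPM (log2 fold change -0.76 ± 0.17 SE, adjusted p = 0.00525). Tnip3, a partner of A20, fell from 314, 308 and 249 to 134, 117 and 137 CPM (log2 fold change -1.17 ± 0.12 SE, adjusted p = 2.03e-05), and Bcl3, an IκB-like coactivator, from 228, 224 and 216 to 104, 112 and 101 CPM (log2 fold change -1.07 ± 0.17 SE, adjusted p = 0.00047). The subunit gene Rela was 204, 187 and 204 CPM in CM and 194, 178 and 183 CPM with both inhibitors, with overlapping groups (log2 fold change -0.10 ± 0.10 SE, adjusted p = 0.492). Nfkb1 was 1387, 1403 and 1199 and 1004, 1081 and 941 CPM (log2 fold change -0.40, under the fold threshold). Without replicate 1 of CM + Rux + IKK-16 the number of members called lower was 4.

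Promoter stretches of 3 NF-κB feedback genes with the κB consensus (both strands searched) in capitals are chr6:65590314-65590383 (plus) for Tnip3, chr12:55492648-55492706 (minus) for Nfkbia and chr10:19015411-19015452 (minus) for Tnfaip3, which encodes A20 (log2 fold change -0.67), again in GRCm38.p6 and chosen by the size of the fall within the list.
Tnip3: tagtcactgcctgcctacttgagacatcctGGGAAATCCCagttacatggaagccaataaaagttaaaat
Nfkbia: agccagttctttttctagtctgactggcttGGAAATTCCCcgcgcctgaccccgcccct
Tnfaip3: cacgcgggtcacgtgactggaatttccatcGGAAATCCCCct
The consensus was found in 10 of the 14 list members with a window (71.4%), in 10.9% of the windows of genes called lower, 6.74% of those called higher and 6.29% of all windows. In the inflammatory cytokine list 5 of 18 windows held it (27.8%), and in the list of STAT3 and STAT5 targets 5 of 21 (23.8%). The share was 8.51% for interferon-stimulated genes and 1.64% for oxidative phosphorylation subunits.

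Of 29 IKK kinases and upstream adaptors, 4 fell and none rose (median -0.13). The target kinases of IKK-16 were not called: Chuk (IKKα) was 81.7, 90.9 and 79.3 CPM in CM and 78.5, 80.8 and 76.3 CPM with both inhibitors (log2 fold change -0.10 ± 0.07 SE, adjusted p = 0.32), and Ikbkb (IKKβ) was 169, 168 and 172 and 131, 149 and 132 CPM (log2 fold change -0.30 ± 0.06 SE, under the fold threshold). The 4 that fell were Map3k8, a kinase upstream of ERK, (log2 fold change -1.10 ± 0.14 SE, adjusted p = 0.000109), Rnf31, part of the linear ubiquitin ligase (-0.70), Ripk2, the kinase of NOD receptors (-0.62), and the adaptor Myd88 (-0.58). Ripk2 changed by -0.42 without CM replicate 2, which is inside the fold threshold.

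Of 27 cytokine genes tested, 7 fell (25.9%, beside 6.13% of all genes) and 2 rose (7.41%, beside 6.6%), with a median of -0.62. With the replicate block 13 fell and 3 rose. Il1a was 1630, 2546 and 2408 CPM in CM and 198, 916 and 698 CPM with both inhibitors (log2 fold change -1.86 ± 0.40 SE, adjusted p = 0.00466). The lowest CM sample was above the highest sample with inhibitors, yet all samples with tumor medium were far above the DMEM mean of 0.376 CPM. Il6 fell from 143, 346 and 167 to 27.5, 108 and 57.3 CPM (log2 fold change -1.77 ± 0.47 SE, adjusted p = 0.0211), and its call was lost without CM replicate 2 or without replicate 1 or 3 of CM + Rux + IKK-16 (adjusted p 0.0585 to 0.0888). With the replicate block over all samples Il6 was called (adjusted p = 4.7e-05). Il27 fell from 3.39, 4.69 and 2.77 to 0.824, 1.38 and 0.815 CPM (log2 fold change -1.86 ± 0.31 SE, adjusted p = 0.000853). In these 3 genes the ruxolitinib step was not called (0.08, 0.52 and 0.61) and the IKK-16 step was (-1.94, -2.29 and -2.48). Csf1, the macrophage growth factor, rose from 22, 22.6 and 32.5 to 49, 50.8 and 73.5 CPM (log2 fold change 1.17 ± 0.21 SE, adjusted p = 0.00152). Its steps were 1.59 (called) and -0.43 (not called). The other called rise was Il16 (0.89), at about 1 to 2 CPM, which had an adjusted p of 0.0768 without CM replicate 2. Tnf was 160, 320.1 and 254 CPM in CM and 143, 339.7 and 295 CPM with both inhibitors (log2 fold change 0.08 ± 0.34 SE, adjusted p = 0.888), and replicate 2 was the highest of each group. That estimate has an SE of 0.34, so a change of either sign of this size, or well beyond it, could be missed here.

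Of 11 CC chemokines 5 fell and none rose (median -0.53). With the replicate block 6 fell and 1 rose, the rise being that of Ccl2, the monocyte attractant (log2 fold change 0.97, adjusted p = 0.0225). Ccl2 was 60.1, 197 and 104 CPM in CM and 94.2, 483 and 196 CPM with both inhibitors, with overlapping groups and replicate 2 the highest of each. Ccl24, an eosinophil attractant, fell from 20.4, 9.2 and 12.4 to 2.42, 2.9 and 2.47 CPM (log2 fold change -2.42 ± 0.34 SE, adjusted p = 0.000227). Ccl5 fell from 258, 449.5 and 348 to 69.8, 151 and 110.5 CPM (log2 fold change -1.67 ± 0.26 SE, adjusted p = 0.000483), Ccl4 by 1.51 and Ccl3 by 0.82 on the log2 scale. Ccl17, a ligand of CCR4, fell from 17.4, 30.3 and 27.3 to 2.63, 13.6 and 4.51 CPM (log2 fold change -1.87 ± 0.56 SE, adjusted p = 0.0339), and this call was lost without CM replicate 2 or 3 or without replicate 1 or 3 of CM + Rux + IKK-16 (adjusted p 0.0733 to 0.112). Ccl22, the other CCR4 ligand, was 92, 84.6 and 162 and 55.7, 105 and 116 CPM, with overlapping groups (log2 fold change -0.29 ± 0.28 SE, adjusted p = 0.479). Of 10 CXC and CX3C chemokines 4 fell and 1 rose (median -0.61). Cxcl5, a neutrophil attractant, fell from 65, 80.6 and 48.4 to 14.2, 31.1 and 14.7 CPM (log2 fold change -1.70 ± 0.32 SE, adjusted p = 0.0021), and Ppbp, of the same family, from 3.89, 4.25 and 3.7 to 1.67, 1.99 and 1.86 CPM (log2 fold change -1.10 ± 0.22 SE, adjusted p = 0.00273). Cxcl10, an interferon-induced ligand of CXCR3, was 2.28, 14.6 and 4.19 CPM in CM and 0.412, 1.53 and 0.728 CPM with both inhibitors (log2 fold change -3.04 ± 0.73 SE, adjusted p = 0.00884). Replicate 2 was the highest of each group. Leaving out only CM replicate 2 gave a log2 fold change of -1.90 with an adjusted p of 0.0716. With the replicate block over all samples it was -2.89 with an adjusted p of 0.000627. Cxcl3 (-1.09) lost its call without CM replicate 2 or replicate 1 or 3 of CM + Rux + IKK-16 (0.0523 to 0.0582), and without CM replicate 2 the list had 2 members called lower. Cx3cl1, the membrane-bound ligand of CX3CR1, rose from 8.12, 13.3 and 14.5 to 13.6, 24.9 and 28.3 CPM (log2 fold change 0.88 ± 0.28 SE, adjusted p = 0.0371). Its groups overlapped, and it was not called without CM replicate 1 or 2 or replicate 2 or 3 of CM + Rux + IKK-16 (0.0701 to 0.148). It was higher in each sample with both inhibitors than in the CM sample of the same number. With the replicate block over all samples its adjusted p was 0.0028.

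Chemokine receptors were called in both directions, 3 lower and 2 higher of 13 (median -0.57), and 6 lower and 3 higher with the replicate block. Cxcr4, the receptor of CXCL12, rose from 98.2, 65.8 and 90.4 to 392, 237 and 282 CPM (log2 fold change 1.84 ± 0.18 SE, adjusted p = 1.82e-05). Its mean in DMEM was 373 CPM, from which the level with both inhibitors did not differ by the thresholds (-0.30 ± 0.20 SE). Cx3cr1 rose from 46.8, 54.2 and 21.7 to 154, 152 and 106 CPM (log2 fold change 1.75 ± 0.38 SE, adjusted p = 0.00523), beside 123 CPM in DMEM (0.16 ± 0.41 SE). By step, Cxcr4 changed by 0.38 (not called) and 1.47 (called) in the ruxolitinib and IKK-16 steps, and Cx3cr1 by 1.70 (called) and 0.04 (not called). The lower receptors were Fpr2, a formyl peptide receptor (log2 fold change -1.27 ± 0.27 SE, adjusted p = 0.00428), Ccr2, the monocyte receptor for CCL2 (-0.97), and Ccr3 (-1.73). The call of Ccr3 was lost without CM replicate 2 or replicate 1 of CM + Rux + IKK-16 (adjusted p 0.0542 and 0.0514). Ccr3 was called with the replicate block over all samples (adjusted p = 1.46e-05).

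The 15 largest falls named here include the interferon-induced genes above and genes of other kinds. Selp, the adhesion receptor P-selectin (chr1:164115264-164150026, plus strand, GRCm38), was at 3.28, 3.33 and 3.5 CPM in CM and at 0.0257, 0.0306 and 0.0291 CPM with both inhibitors (log2 fold change -6.70 ± 0.33 SE, adjusted p = 8.22e-07). The 3 libraries with both inhibitors held 3 fragments in all and the CM libraries 257, a ratio of 119 with a 95% exact counting interval of 40.3 to 581. Slamf1, a signaling receptor of the SLAM family, was 9.84, 7.69 and 13.8 CPM in CM and 0.0772, 0 and 0.233 CPM with both inhibitors (log2 fold change -6.60 ± 0.57 SE, adjusted p = 8.03e-06). Neither gene differed from DMEM by the thresholds once both inhibitors were present (-0.25 and 0.55 on the log2 scale), at levels of a few counts per library. Both steps were called for both: -3.69 and -3.01 for Selp and -3.43 and -3.17 for Slamf1. Mt2, a metallothionein that binds zinc, fell from 125, 187 and 82.6 to 7, 8.34 and 9.75 CPM (log2 fold change -3.98 ± 0.29 SE, adjusted p = 2.13e-06), close to its DMEM mean of 7.07 CPM (0.25 ± 0.33 SE). Its neighbour and paralog Mt1 fell from 208, 315 and 188 to 38.7, 35.7 and 42 CPM (log2 fold change -2.61 ± 0.18 SE, adjusted p = 1.3e-06). Others among the 15 largest falls were Acat3, an acetyl-CoA acetyltransferase (13.1, 10.8 and 7.45 to 0.438, 0.703 and 0.349 CPM), Fcrlb, an Fc receptor-like protein (5.56, 5.85 and 4.23 to 0.309, 0.367 and 0.466 CPM), and Gm10522, which has no described function (-5.09).

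Acute-phase and alarmin genes had 5 of 12 members lower and none higher (median -0.68): Steap4 (above), Lcn2, Saa3, Hp and Cp. Lcn2, which binds bacterial siderophores, fell from 13.9, 10.9 and 16.3 to 0.85, 0.642 and 1.25 CPM (log2 fold change -3.90 ± 0.36 SE, adjusted p = 1.12e-05). Saa3, serum amyloid A3, fell from 625, 684 and 1177 to 43.5, 63.6 and 114 CPM (log2 fold change -3.49 ± 0.45 SE, adjusted p = 0.000131). The IKK-16 step held most of the change of both (-3.19 and -3.19), and the ruxolitinib step was not called for either (-0.70 and -0.31), although with the replicate block it was for Lcn2 (log2 fold change -0.73, adjusted p = 0.00615). Haptoglobin (Hp) fell by 2.05 and ceruloplasmin (Cp) by 1.90 on the log2 scale.

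Matrix, adhesion and hyaluronan genes had 15 of 35 members lower (42.9%, beside 6.13% of all genes) and 3 higher (8.57%, beside 6.6%), with a median of -0.72. Timp1, an inhibitor of metalloproteinases, fell from 65, 128 and 68.8 to 4.56, 14 and 6.96 CPM (log2 fold change -3.37 ± 0.43 SE, adjusted p = 0.000122), with -1.98 in the ruxolitinib step and -1.40 in the IKK-16 step, both called. Hyal1, a hyaluronidase, rose from 2.67, 4.25 and 4.88 to 9.35, 15 and 12.4 CPM (log2 fold change 1.62 ± 0.26 SE, adjusted p = 0.000695). The other 2 rises were of Plau (1.16, urokinase) and Itgb3 (0.85, integrin β3). They were called with the replicate block as well (adjusted p = 5.47e-05 and 0.00374), but not in every fit that left out 1 sample. Plau lost its call without CM replicate 1 or 3 or replicate 2 or 3 of CM + Rux + IKK-16 (adjusted p 0.0562 to 0.109), and Itgb3 without CM replicate 1 or 2 or replicate 2 or 3 of CM + Rux + IKK-16 (0.0719 to 0.127).

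Enzymes of inflammatory mediators were called in both directions. Of 20 genes for prostaglandins, nitric oxide and itaconate, 6 fell and 2 rose (median -0.07, or 0.04 with scaling by total counts). Nos2, inducible nitric oxide synthase, fell from 216, 125 and 185 to 17.4, 8.53 and 17.7 CPM (log2 fold change -3.59 ± 0.52 SE, adjusted p = 0.000539). Ptgs2, the cyclooxygenase COX-2, fell from 3327, 3976 and 2509 to 948, 1589 and 862 CPM (log2 fold change -1.53 ± 0.28 SE, adjusted p = 0.0016). Hpgds, which makes prostaglandin D2, rose from 66, 66.7 and 57.9 to 140, 125 and 117 CPM (log2 fold change 1.01 ± 0.18 SE, adjusted p = 0.00164), and Lta4h, of leukotriene B4 synthesis, by 0.63 on the log2 scale.

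Growth and angiogenic factors moved in both directions, with 8 of 29 lower and 5 higher (median -0.18). Nrg1, neuregulin 1, a ligand of ERBB receptors, fell from 97, 124 and 120.4 to 8.37, 16.6 and 14.1 CPM (log2 fold change -3.13 ± 0.30 SE, adjusted p = 1.42e-05). Edn1, endothelin 1, fell from 13.9, 31.4 and 15.3 to 1.18, 4.55 and 1.77 CPM (log2 fold change -3.04 ± 0.48 SE, adjusted p = 0.000519), and Pgf, placental growth factor, from 13.2, 31.1 and 19.9 to 2.73, 8.37 and 2.85 CPM (log2 fold change -2.22 ± 0.46 SE, adjusted p = 0.00382). The ruxolitinib and IKK-16 steps were -2.42 (called) and -0.71 (not called, but called with the replicate block at an adjusted p of 0.0105) for Nrg1, and -0.42 (not called) and -2.62 (called) for Edn1. Vegfa was 781, 1113 and 794 and 509.7, 914 and 537 CPM, with overlapping groups (log2 fold change -0.46 ± 0.38 SE, adjusted p = 0.418). The higher members included Angptl2, a secreted angiopoietin-like factor, from 10.2, 20.5 and 17.5 to 43.2, 65.6 and 52.1 CPM (log2 fold change 1.72 ± 0.29 SE, adjusted p = 0.000803), Kdr, the VEGF receptor VEGFR2 (1.57), and Vash2, a tubulin carboxypeptidase (1.83). The other 2 were Nrp1 (0.57), at 0.48 without CM replicate 1, and Hgf (0.71), whose call was lost without any 1 of the CM samples or replicate 1 or 3 of CM + Rux + IKK-16 (adjusted p 0.0554 to 0.127). Without CM replicate 1 the list had 3 members called higher.

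**Figure D4:**
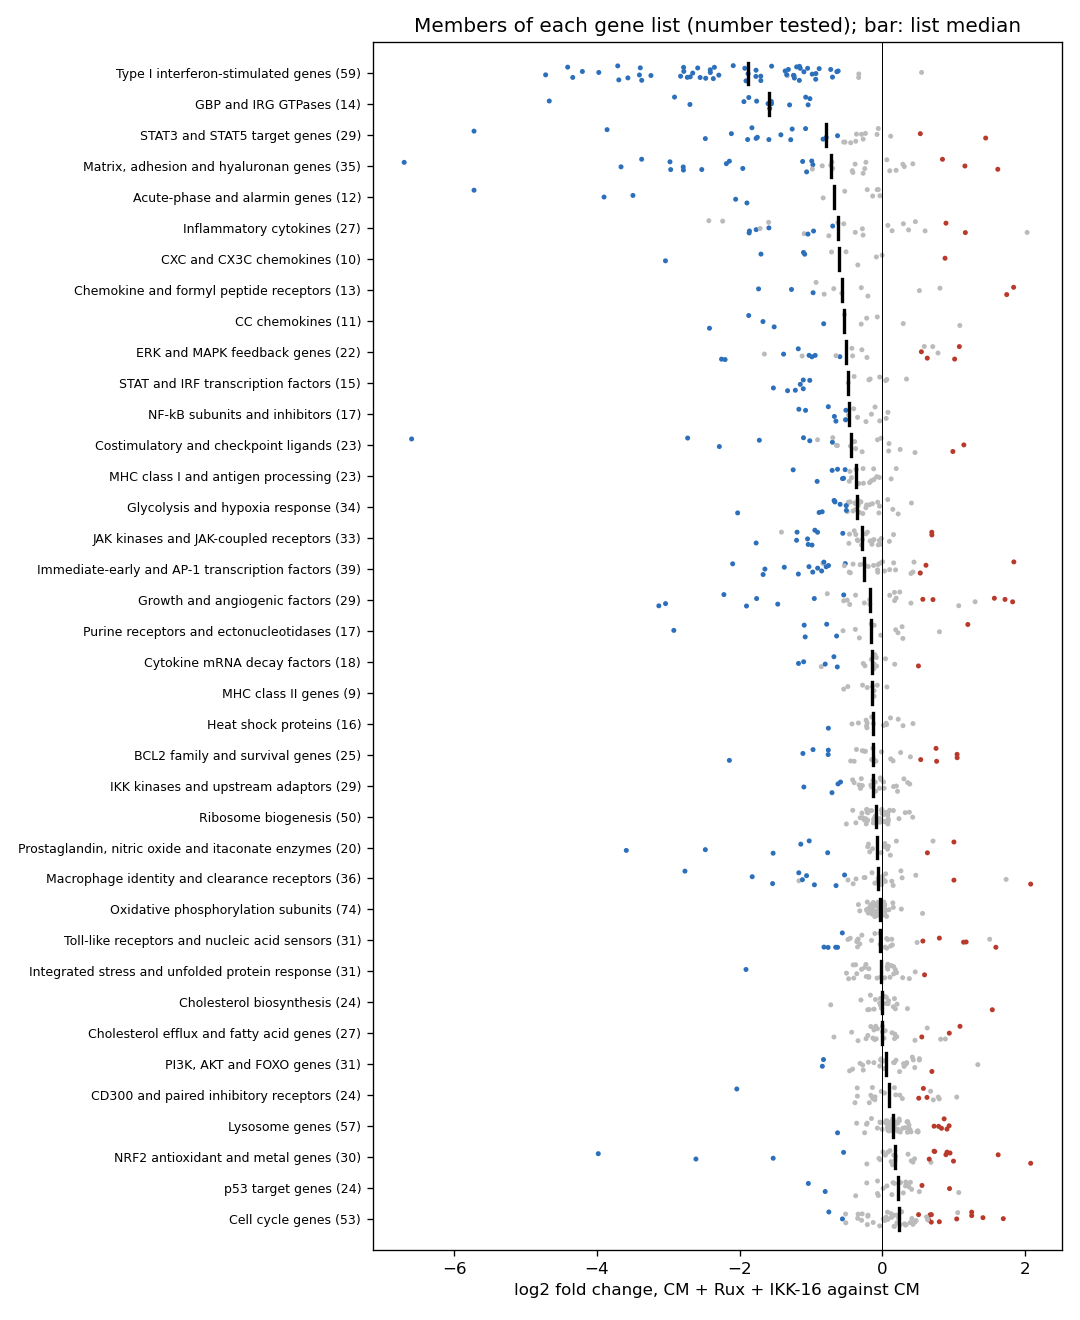
Each row is 1 of 38 gene lists, with the number of members tested, each point is a member's log2 fold change of CM + Rux + IKK-16 against CM (horizontal axis), and black bars are medians. Blue and red points were called lower and higher, and the medians run from -1.88 for interferon-stimulated genes to 0.23 for cell cycle genes.

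Transcription factors of the early response and the feedback regulators of ERK were also lower in part. Of 39 immediate-early and AP-1 factors, 13 fell (33.3%, beside 6.13% of all genes) and 3 rose (7.69%, beside 6.6%), with a median of -0.26. Nr4a1, an orphan nuclear receptor, fell from 56.8, 62.5 and 63.2 to 13.6, 22.1 and 22.7 CPM (log2 fold change -1.64 ± 0.38 SE, adjusted p = 0.0076), Ier2 by 1.37 and Batf2 by 1.18 on the log2 scale. Bhlhe41, a repressor of the circadian clock family, rose from 24.5, 21.6 and 39.5 to 113, 75 and 119.9 CPM (log2 fold change 1.85 ± 0.31 SE, adjusted p = 0.000956). The other 2 rises, Klf9 (0.61) and Cebpa (0.53), lost their calls without CM replicate 1 or 3 or replicate 1 of CM + Rux + IKK-16 (adjusted p 0.066 to 0.0783) and without CM replicate 1 or 2 or replicate 1 or 3 of CM + Rux + IKK-16 (0.0572 to 0.0889). The number of falls was 5 without replicate 1 of CM + Rux + IKK-16 and 7 without CM replicate 2, and the number of rises 1 without replicate 1 of either group. Of 22 ERK and MAPK feedback genes, 8 fell and 4 rose (median -0.51), with 4 falls without replicate 1 of CM + Rux + IKK-16, 5 without its replicate 3 and 5 without CM replicate 2. Dusp2, a nuclear MAPK phosphatase, fell from 59, 109 and 63.4 to 9.27, 24.8 and 14.7 CPM (log2 fold change -2.25 ± 0.38 SE, adjusted p = 0.000972), and Errfi1, an inhibitor of the EGF receptor, from 471, 864 and 410.3 to 68.9, 227 and 83.6 CPM (log2 fold change -2.20 ± 0.49 SE, adjusted p = 0.00612). The phosphatases Dusp8 (1.08), Dusp3 (0.63) and Dusp4 (0.55) and the G protein regulator Rgs2 (1.02) were higher. Without CM replicate 2, Dusp3 had an adjusted p of 0.0519 and Dusp4 a log2 fold change of 0.47, and Rgs2 lost its call without CM replicate 1 or 3 or replicate 1 or 2 of CM + Rux + IKK-16 (0.116 to 0.151). Rgs2 was called with the replicate block over all samples (adjusted p = 0.000217).

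Of the macrophage receptors for antibodies, Fcgr2b, the inhibitory one (chr1:170958617-170976547, minus strand), fell from 624, 762 and 772 to 69.2, 95.9 and 153 CPM (log2 fold change -2.77 ± 0.31 SE, adjusted p = 4.09e-05). That is 6.8-fold lower, and the level did not differ by the thresholds from the DMEM mean of 61.5 CPM (0.79 ± 0.33 SE). The activating receptors Fcgr3 and Fcgr4 fell as well, Fcgr3 from 735, 1016 and 679.7 to 234, 333 and 271 CPM (log2 fold change -1.54 ± 0.22 SE, adjusted p = 0.000261) and Fcgr4 from 68.7, 123 and 64.2 to 19.9, 29.8 and 23.1 CPM (log2 fold change -1.82 ± 0.34 SE, adjusted p = 0.00176). Fcgr1, a further activating receptor among the macrophage markers above, was not called. Fcgr2b, Fcgr3 and Fcgr4 belong to the list of macrophage identity and clearance receptors. In it 9 of 36 fell (25%, beside 6.13% of all genes) and 2 rose (5.56%, beside 6.6%), with a median of -0.06, or 0.04 with total counts. The 2 that rose were Hpgds (above) and Slc40a1, the iron exporter ferroportin, from 2.5, 1.96 and 2.6 to 14.6, 5.41 and 9.31 CPM (log2 fold change 2.08 ± 0.36 SE, adjusted p = 0.000971), well under its DMEM mean of 210.4 CPM. Of 23 costimulatory and checkpoint genes, 7 fell (30.4%) and 2 rose (8.7%, beside 6.6% of all genes), with a median of -0.44, and 11 fell with the replicate block. Tnfrsf9, the T cell costimulator 4-1BB, fell from 111, 164 and 98.4 to 11, 32.6 and 13.1 CPM (log2 fold change -2.73 ± 0.47 SE, adjusted p = 0.0011), and Pdcd1lg2, which encodes PD-L2, from 2, 1.81 and 1.34 to 0.412, 0.397 and 0.233 CPM (log2 fold change -2.28 ± 0.30 SE, adjusted p = 0.000152). Slamf7 rose from 25.4, 28.5 and 32.1 to 73.6, 50 and 66.7 CPM (log2 fold change 1.15 ± 0.17 SE, adjusted p = 0.000432). The second rise, Slamf8 (0.99), lost its call without CM replicate 2 or 3 or replicate 1 or 3 of CM + Rux + IKK-16 (adjusted p 0.0857 to 0.212).

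Antigen presentation changed in its class I part. Of 23 MHC class I and processing genes, 7 fell and none rose (median -0.36), led by Tap1, the peptide transporter, from 63.8, 86.3 and 63 to 28.5, 32.7 and 28.7 CPM (log2 fold change -1.25 ± 0.13 SE, adjusted p = 3.01e-05). H2-T24 fell by 0.91 and the proteasome activator Psme2 by 0.70 on the log2 scale. None of 9 MHC class II genes was called in either direction (median -0.14).

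The genes that rose were fewer with large changes. Nptx1, neuronal pentraxin 1 (chr11:119538719-119547753, minus strand), had the largest rise among the named genes, from 0.834, 0.683 and 0.448 to 7.26, 6.63 and 4.02 CPM (log2 fold change 3.20 ± 0.37 SE, adjusted p = 5.21e-05). Its DMEM mean was 0.807 CPM, so the level with both inhibitors was above tumor medium and plain medium alike (2.88 against DMEM, in a comparison that called 1996 genes higher, 16.1%). Cgnl1, a junction protein (chr9:71626509-71771602, minus strand), rose from 24.1, 36.3 and 23.6 to 126, 139 and 117 CPM (log2 fold change 2.18 ± 0.20 SE, adjusted p = 1.14e-05), above its DMEM mean of 36 CPM as well (1.82). Tent5c, a poly(A) polymerase, rose from 23.8, 25 and 29 to 106, 86 and 113 CPM (log2 fold change 1.97 ± 0.22 SE, adjusted p = 3.87e-05), and Hal, histidine ammonia-lyase, from 22.3, 32.1 and 41.7 to 77.4, 126 and 148 CPM (log2 fold change 1.86 ± 0.37 SE, adjusted p = 0.00276). Both were also above DMEM (1.71 and 1.31). In contrast Cd28, a costimulatory receptor best known in T cells, rose from 5.17, 7.57 and 8.22 to 29.8, 27 and 25.9 CPM (log2 fold change 1.96 ± 0.28 SE, adjusted p = 0.000253) and stayed under its DMEM levels of 80.1 and 182 CPM (-2.25). The T cell markers Cd3e, Cd3d and Cd3g were at 0 in all 6 samples. Fam83f rose from 0.556, 0.475 and 0.936 to 5.12, 3.54 and 6 CPM (log2 fold change 2.91 ± 0.39 SE, adjusted p = 0.000162). At low levels, Gm30329 (2.58), Bach2os (2.48), Rasd2 (2.35), Dusp13 (2.20), Htr2b (2.20), Cd207 (1.97) and Gprc5b (1.91) were higher, and Tns1 (1.87) lost its call without CM replicate 1 or 2 or replicate 3 of CM + Rux + IKK-16 (adjusted p 0.0956 to 0.138). Tns1 was called with the replicate block over all samples (adjusted p = 0.000169).

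Cell cycle genes were the list with the highest median, 0.23, with 11 of 53 higher and 2 lower. Cenpa, the centromeric histone, rose from 4.56, 6.29 and 4.96 to 16.4, 21.6 and 13.8 CPM (log2 fold change 1.70 ± 0.32 SE, adjusted p = 0.00209), and Kif23, a kinesin of cytokinesis, from 3.56, 5.67 and 3.91 to 10.2, 14.2 and 11.2 CPM (log2 fold change 1.41 ± 0.30 SE, adjusted p = 0.00465). The 2 that fell were Tyms, thymidylate synthase (-0.75), and Mki67, the Ki-67 antigen, which was 184, 149 and 196 CPM in CM and 90.5, 120.3 and 149 CPM with both inhibitors. The list is therefore not uniform, and Mki67 lost its call without CM replicate 1 or 3 or replicate 1 or 2 of CM + Rux + IKK-16 (adjusted p 0.0584 to 0.126).

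Lysosome genes were shifted slightly upward (median 0.15), with 6 of 57 called higher and 1 lower. Atp6v0d2, a proton pump subunit, rose from 14.7, 14.1 and 17.1 to 32.1, 23.5 and 32.2 CPM (log2 fold change 0.94 ± 0.21 SE, adjusted p = 0.00542). Tfeb, the transcription factor of lysosomal genes, rose from 17.3, 17 and 25.1 to 36.4, 28.8 and 43.2 CPM (log2 fold change 0.87 ± 0.19 SE, adjusted p = 0.00491), and Sgsh, a lysosomal sulfatase, by 0.91 on the log2 scale. The 1 that fell was the protease cathepsin C (Ctsc, -0.63). The share called higher, 10.5%, stands beside 6.6% over all genes.

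Toll-like receptors and nucleic acid sensors had 5 of 31 higher and 5 lower (median -0.03, or 0.08 with total counts). The higher ones included receptors of the endosome: Tlr9, the receptor of unmethylated CpG DNA, from 11.8, 12.6 and 8.5 to 34.6, 30.2 and 34.8 CPM (log2 fold change 1.59 ± 0.23 SE, adjusted p = 0.000253), Tlr13, which detects bacterial ribosomal RNA, from 104, 76.3 and 119 to 246, 169 and 245 CPM (log2 fold change 1.14 ± 0.17 SE, adjusted p = 0.000421), Tlr7 (0.57), the surface receptor Cd180 (log2 fold change 1.18 ± 0.17 SE, adjusted p = 0.000319) and the adaptor Ticam2 (0.80). The lower ones belong to inflammasomes and cytosolic sensing: Pycard, the adaptor ASC (log2 fold change -0.82 ± 0.14 SE, adjusted p = 0.00121), Casp4 (-0.76), Tmem173, which encodes STING (-0.63), Nod2 (-0.65) and Nlrp3 (-0.56). Tlr7 lost its call without CM replicate 2 or 3 or replicate 1 or 3 of CM + Rux + IKK-16 (adjusted p 0.0596 to 0.138). Nod2 (0.0647 to 0.133) and Nlrp3 (0.0557 to 0.15) lost theirs without CM replicate 1 or 2 or replicate 1 or 3 of CM + Rux + IKK-16, and 3 members were called lower without CM replicate 1 or without replicate 3 of CM + Rux + IKK-16.

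NRF2 targets and metal genes also split. Of 30, 9 rose and 4 fell (median 0.19). Gclc, which catalyses the first step of glutathione synthesis, rose from 65, 42.7 and 62.1 to 150.2, 83.3 and 105 CPM (log2 fold change 0.9998 ± 0.22 SE, adjusted p = 0.00567), and Slc30a1, a zinc exporter, from 10.3, 5.7 and 14.5 to 34.6, 19.8 and 38.6 CPM (log2 fold change 1.63 ± 0.39 SE, adjusted p = 0.00916). The falls were Mt1 and Mt2 (above), the zinc importer Slc39a14 (log2 fold change -1.53 ± 0.16 SE, adjusted p = 2.4e-05) and Sod2 (-0.54), whose call was lost without any 1 of the 6 samples (adjusted p 0.0594 to 0.12). Leaving out CM replicate 2 or replicate 1 of CM + Rux + IKK-16 left 4 rises, and leaving out CM replicate 3 left 5.

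Of the metabolic lists, glycolysis had the most calls. Of 34 glycolysis and hypoxia genes, 9 fell and none rose (median -0.36), led by Pfkfb3, the activator of phosphofructokinase, from 902, 1008 and 628 to 204, 247 and 172 CPM (log2 fold change -2.03 ± 0.22 SE, adjusted p = 3.21e-05). The glucose transporter Slc2a1 fell by 0.88 and hexokinase 2 (Hk2) by 0.84 on the log2 scale, and 4 members were called lower without replicate 1 of CM + Rux + IKK-16. Of 24 cholesterol biosynthesis genes 1 was called, and with the replicate block also Acat2, lower (log2 fold change -0.71, adjusted p = 0.000155). The 1 was Dhcr7, the last enzyme of the pathway, which rose from 3.83, 5.02 and 3.13 to 13.3, 12.7 and 9.28 CPM (log2 fold change 1.54 ± 0.19 SE, adjusted p = 7.8e-05). Of 27 cholesterol efflux and fatty acid genes 3 rose and none fell (6 rose with the replicate block). They were Mylip, which degrades the LDL receptor (log2 fold change 1.09 ± 0.19 SE, adjusted p = 0.00117), Nr1h3, the oxysterol receptor LXRα (0.94), and Cpt1a (0.56), whose call was lost without CM replicate 1 or 2 or replicate 1 or 3 of CM + Rux + IKK-16 (adjusted p 0.0628 to 0.121), while without replicate 2 of CM + Rux + IKK-16 the number was 5. Cpt1a was called with the replicate block over all samples (adjusted p = 0.000406). By edgeR none of 74 oxidative phosphorylation subunits (median -0.03, or 0.08 with total counts) and none of 50 ribosome biogenesis genes (median -0.08, or 0.03) was called without the replicate block, nor by DESeq2, with 9 and 10 at an unadjusted p under 0.05. With the block, Rrp1b of the ribosome list was called lower (log2 fold change -0.52, adjusted p = 0.0425).

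Purine receptors and ectonucleotidases had 5 of 17 lower (29.4%, beside 6.13% of all genes) and 1 higher (5.88%, beside 6.6%), and 6 lower and 2 higher with the replicate block. Adora3, the A3 adenosine receptor, fell from 8.89, 10.5 and 7.93 to 0.953, 1.68 and 0.99 CPM (log2 fold change -2.92 ± 0.30 SE, adjusted p = 2.01e-05), and P2ry2 and Adora2b fell by 1.09 and 1.08 on the log2 scale. P2ry6 (-0.78) and Pde4b (-0.64) were also lower, and P2ry1 (1.20) was higher. P2ry6 lost its call without CM replicate 2 or replicate 1 of CM + Rux + IKK-16 (adjusted p 0.0652 and 0.0657), Pde4b without those or replicate 3 of CM + Rux + IKK-16 (0.0589 to 0.0783) and P2ry1 without CM replicate 2 (0.0511). Factors of cytokine mRNA decay had 5 of 18 lower (27.8%) and 1 higher (5.56%): Zfp36, which encodes tristetraprolin (-1.17), Zfp36l1 (-1.10), Btg2 (-0.80), Zc3h12a (-0.68) and Btg1 (-0.63) fell, and Pan2 (0.51) rose. Without CM replicate 2, or replicate 1 or 3 of CM + Rux + IKK-16, Zfp36 (0.0511 to 0.0577), Zfp36l1 (0.076 to 0.0825) and Btg1 (0.11 to 0.122) were not called, which left 2 falls, and Pan2 was at 0.44 to 0.49 without CM replicate 2 or replicate 1 or 2 of CM + Rux + IKK-16.

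BCL2 family and survival genes had 5 of 25 lower and 5 higher. Serpinb2, the inhibitor PAI-2, fell from 8.28, 9.05 and 11.3 to 1.54, 3 and 1.98 CPM (log2 fold change -2.14 ± 0.21 SE, adjusted p = 1.81e-05), and the antiapoptotic gene Bcl2a1a, one of several near-identical copies whose counts are uncertain, by 1.11 on the log2 scale, with Bcl2a1d at -0.76 and Bcl2a1b at -0.76. Bik was lower (-0.97). Serpinb9, a granzyme B inhibitor, rose from 6.95, 5.37 and 7 to 15.1, 10.7 and 13.9 CPM (log2 fold change 1.05 ± 0.17 SE, adjusted p = 0.000744), beside Bmf (1.05), Bcl2 (0.76), Gadd45a (0.76) and Bid (0.54). Of these, 6 were called with the replicate block over all samples but not in every fit that left out 1 sample. They were Bik (adjusted p 0.114 to 0.164 without CM replicate 1 or 2 or replicate 1 or 3 of CM + Rux + IKK-16), Bmf (0.0513 to 0.181 without any CM sample or replicate 1 or 3 of CM + Rux + IKK-16), Bcl2 (0.0618 to 0.0889 without CM replicate 1 or replicate 2 or 3 of CM + Rux + IKK-16), Gadd45a (0.0559 without replicate 3 of CM + Rux + IKK-16), Bid (0.0805 to 0.114 without CM replicate 1 or 2 or replicate 3 of CM + Rux + IKK-16) and Bcl2a1b (0.0549 to 0.0915 without CM replicate 2 or 3 or replicate 1 of CM + Rux + IKK-16). The number of rises was 1 to 3 without replicate 3 of CM + Rux + IKK-16, CM replicate 1 or CM replicate 2, and 3 falls were left without CM replicate 2 or replicate 1 of CM + Rux + IKK-16.

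Of 24 CD300 and paired receptors 3 rose and 1 fell, and 2 fell without replicate 2 of CM + Rux + IKK-16. Cd300lb rose from 203, 233 and 207 to 343, 303 and 313 CPM (log2 fold change 0.58 ± 0.12 SE, adjusted p = 0.003), and Siglecf, a sialic acid receptor, fell from 2.83, 3.15 and 2.77 to 0.669, 0.642 and 0.815 CPM (log2 fold change -2.04 ± 0.34 SE, adjusted p = 0.00076). Cd300ld4 (0.63) and Cd300c2 (0.51) lost their calls without CM replicate 1 or 3 or replicate 1 or 2 of CM + Rux + IKK-16 (adjusted p 0.114 to 0.171 and 0.0497 to 0.0739, the latter with a log2 fold change of 0.43 to 0.50), and 6 members rose with the replicate block. Of 31 integrated stress and unfolded protein response genes, Ddit4, an inhibitor of mTORC1, fell from 51.7, 87.3 and 52.5 to 12.4, 24.5 and 14.2 CPM (log2 fold change -1.91 ± 0.28 SE, adjusted p = 0.000302) and Ern1 rose (0.59, or 0.50 and under the fold threshold without replicate 1 of CM + Rux + IKK-16). Of 16 heat shock proteins only Hspa8 was called, lower by 0.75 on the log2 scale. The p53 list (24 tested) had Cdkn1a, the cell cycle inhibitor p21 (log2 fold change -1.03 ± 0.17 SE, adjusted p = 0.000726), and Btg2 lower, and Trp53inp1 (0.94) and Gtse1 (0.56) higher. That was 8.33% of the list in each direction, near the 6.13% lower and 6.6% higher of all genes. Gtse1 lost its call without CM replicate 2 or 3 or replicate 1 or 2 of CM + Rux + IKK-16 (0.0567 to 0.101). Of 31 PI3K, AKT and FOXO genes Pik3r6 (-0.84) and Pik3cd (-0.82), both parts of the immune PI3-kinases, were lower and Il7r higher, the latter with the limit given above, and Inpp4b also rose with the replicate block (log2 fold change 0.53, adjusted p = 0.0193). Over 38 lists, 1038 distinct genes were tested.

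In 68 of the 12372 genes tested both steps were called in opposite directions. For every gene the combined change is the sum of the 2 steps by construction. The shared CM + Rux samples enter the steps with opposite sign, which by itself favors opposite directions. Has1, a hyaluronan synthase (chr17:17843323-17855205, minus strand), was 22.9, 32.3 and 23.5 CPM in CM, 60.7, 63.9 and 56.5 CPM in CM + Rux and 2.91, 7.73 and 6.84 CPM with both inhibitors. Every CM + Rux sample was above every CM sample, and every sample with both inhibitors was below them (log2 fold change -2.18 ± 0.28 SE, adjusted p = 0.000117). Shisa3, which encodes a transmembrane adaptor, followed the same order at 7.67, 6.2 and 8.38, 29.1, 22 and 27.6 and 1.7, 2.02 and 2.65 CPM (log2 fold change -1.80 ± 0.21 SE, adjusted p = 7.19e-05). Csf2, which encodes GM-CSF (chr11:54247271-54249667, minus strand), was 0.0556, 0.0891 and 0.0407 CPM in CM, 0.916, 0.75 and 1.22 CPM in CM + Rux and 0, 0.0611 and 0.204 CPM with both inhibitors. The levels with both inhibitors overlapped those in CM (log2 fold change 0.37 ± 1.05 SE, adjusted p = 0.832), and 3 counts stand for 0.0772 to 0.0917 CPM in the libraries with both inhibitors, and a difference between those 2 groups was not detectable at this depth. Lif, a cytokine of the IL-6 family, was 3.67, 8.73 and 2.36 CPM in CM, 30.1, 37.4 and 12.7 CPM in CM + Rux and 4.04, 13.1 and 4.04 CPM with both inhibitors (log2 fold change 0.47 ± 0.53 SE, adjusted p = 0.568), also with overlapping groups. Gfi1, a transcriptional repressor, was 1, 1.16 and 0.692, 7.33, 3.53 and 5.49 and 0.489, 0.917 and 0.931 CPM (-0.31 ± 0.40 SE, not called). U90926 (-2.13), at under 1 CPM in CM, ended lower with both inhibitors, with an adjusted p of 0.0705 without CM replicate 2. Inava (0.19 ± 0.40 SE) was not called. In the other direction, Jaml, 9930111J21Rik1 and 9930111J21Rik2 were lower in CM + Rux and near their CM levels with both inhibitors, at 0.05, 0.17 and 0.33 on the log2 scale, none called. The last 2 are similar copies, so their separate counts are uncertain.

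**Figure D5:**
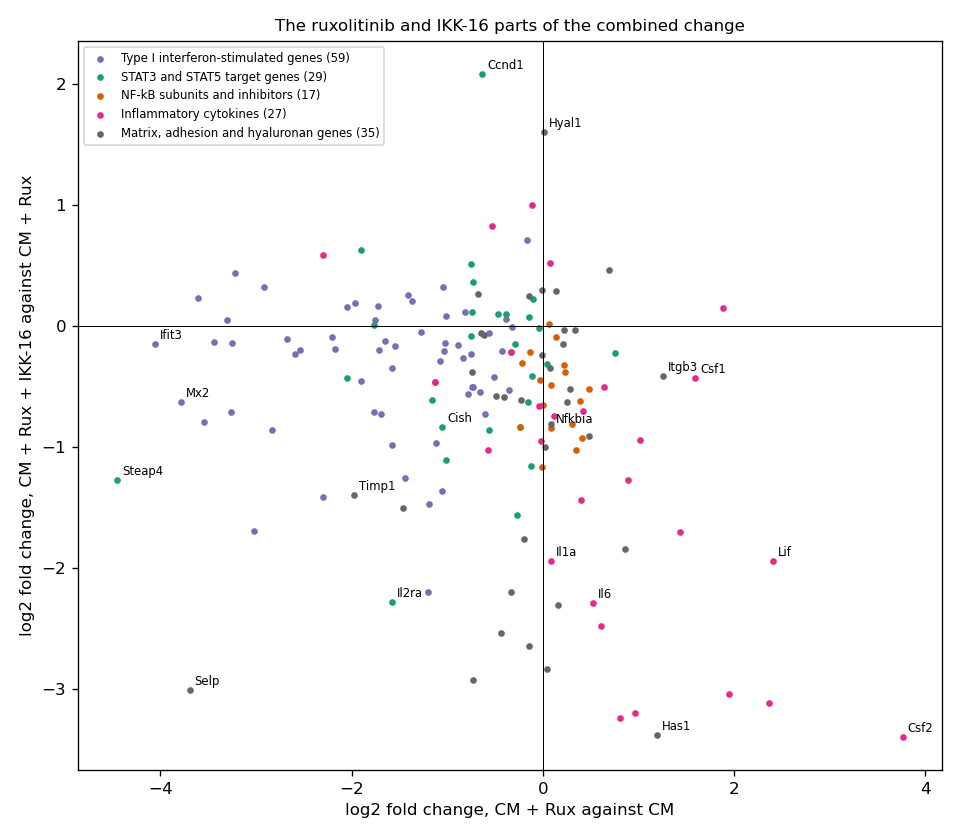
Members of 5 lists by log2 fold change in CM + Rux against CM (horizontal axis) and in CM + Rux + IKK-16 against CM + Rux (vertical axis), which share the CM + Rux samples. Interferon genes lie to the left (Ifit3 at -4.05 and -0.15), Il1a lies almost straight down (0.08 and -1.94), and Csf2, Lif and Has1 lie to the lower right.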

How the data were processed

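Total RNA of BMDMs was sequenced as stranded, paired-end libraries. The authors trimmed reads with Trimmomatic 0.33, aligned them to GRCm38 with HISAT2 2.1.0 and counted fragments per gene of Ensembl annotation 100 with featureCounts 1.6.2, at a mapping quality of at least 10. The deposited values are raw counts of 55487 genes in 16 samples. Fragments that map to several places or genes were not counted, so near-identical genes lose reads.

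All 16 samples in 6 groups (the 5 named above and CM + Rux with the label 2h, whose meaning is not stated) entered one edgeR 4.0.16 quasi-likelihood fit (glmQLFit, glmQLFTest; R 4.3.3) with RLE factors. The test took genes that exceeded 1 CPM in 2 or more samples, and p-values were adjusted by Benjamini-Hochberg. SE is the log2 fold change divided by the square root of F. On simulated counts of 12054 tested genes, 80.8% of 99 genes changed by a log2 of 1 and 96.9% of 98 changed by 2 were called for CM + Rux + IKK-16 against CM, with 4 false calls among the unchanged genes. The simulated counts held no effect of the replicate number. Nothing states that replicates came from separate mice or cultures, so p-values measure the spread between these samples, which may be technical. No 2 replicates of the compared groups agreed within counting noise (chi-square per degree of freedom 15.4 to 54.5).

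Same-numbered CM and CM + Rux + IKK-16 samples deviated together (r = 0.391, 0.548 and 0.469; -0.0679 to -0.36 for different numbers), so the numbers pair the samples. The fit of the study's methods has no block and was kept, and the block was an alternative. Fits that left out 1 sample had no block either. Where same-numbered samples differ together, a fit without the block counts that difference as spread. With the block, for example, the adjusted p of Arg1 was 8.2e-07 in place of 0.026, and that of Ccl17 was 0.000109 in place of 0.0339. The members and lists were chosen with earlier results of these data known. Named genes were the 15 largest called rises and falls with a mean of at least 1 CPM and no overlap, up to 3 called members per list and direction, a panel of central genes, the 10 most opposed genes by step and all members of small counts; some genes that this rule names are not reported here. Promoter windows are from RefSeq (GRCm38.p6). Intervals cover counting error only. Alternatives were other scalings, filters, thresholds and tests, DESeq2 1.42.0, and leaving out each sample. The sorting of genes by CM + Rux against DMEM + Rux was added after seeing the data.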

Additional observations from a re-analysis of the deposited data

How the results depend on the processing

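Relative to the 817 genes called higher and 758 called lower, the counts were 859 and 733 with TMM factors and 867 and 791 with DESeq2. Scaling by total counts alone gave 1255 higher genes, removing the fold threshold gave 1364 higher and 1493 lower, and a log2 fold change beyond 1 gave 258 higher and 344 lower. Leaving out 1 of the 6 samples gave 603 to 853 higher and 533 to 857 lower genes. With the replicate number as a block the counts were 1021 higher and 904 lower, including 814 and 756 of the genes called without it, and with the block in a fit of the 2 groups they were 991 and 865. Among the 203 genes named by the rule, no call in this comparison changed under the block over all samples. Tor3a, Ccl2, Acat2, Rrp1b and Inpp4b were named only for a call that the block added and are not among the 203. Of 203 named genes, 113 kept direction and side of the threshold in every alternative run for them (19, or 17 for 5 genes that were not tested in the fits of the 2 groups), 82 changed side in at least 1 and 8 changed sign. The genes that changed sign were not called. Over the 6 fits that each left out 1 sample, the log2 fold change ran from -1.11 to 0.992 for Csf2 (negative without CM + Rux + IKK-16 replicate 3), from -0.495 to 0.0594 for Ccl22 (positive without CM replicate 3), from -0.165 to 0.372 for Tnf (-0.165, -0.0234 and -0.151 without CM + Rux + IKK-16 replicate 2, its replicate 3 and CM replicate 1), from -0.154 to 0.217 for Jaml (negative without CM replicate 2), from -0.0103 to 0.622 for 9930111J21Rik1 (negative without CM replicate 1) and from -0.332 to 1.24 for Lif (negative without CM + Rux + IKK-16 replicate 2). With total counts Rela was at 0.00683 and Chuk at 0.0138. Fewer samples give a test less power; beyond that the cause was not tested. At 3 counts, the libraries reach 0.0772 to 0.167 CPM, which limits genes such as Csf2, Selp and Steap4.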
